A study of Mus musculus with 8 samples.

Results

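The genes described here were 10 components of the Hedgehog pathway in the mouse liver, and they included Evc and Evc2, which act at the base of the primary cilium. They were picked by symbol, with the difference between Brap LKO and Brap F/F livers in view, from the 24451 genes of the deposited table. The members are Evc, Evc2, Ihh, Ptch1, Smo, Hhip, Sufu, Gli1, Gli2 and Gli3, and each of them was found in the table. Bulk RNA sequencing was done on the left lobe of the liver of 4 Brap LKO and 4 Brap F/F male mice on a C57BL/6 background, 18 wk old and fasted for 6 h. Mice of both groups carried the floxed Brap allele, in which exons 2 and 3 are flanked by loxP sites. Brap LKO mice also carried Albumin-Cre, a transgene that expresses the recombinase under the albumin promoter, which is active in hepatocytes and in the embryonic precursors that hepatocytes share with cholangiocytes. The control mice had no Cre, although their labels name them wild type, and no group with Cre alone was compared. Each library was labeled as a separate animal, and p-values measure the spread between these livers.

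Hedgehog ligands such as Indian hedgehog (Ihh) bind Patched 1 (Ptch1), which otherwise holds the membrane protein Smoothened (Smo) inactive. Released Smoothened gathers in the primary cilium, where the EVC and EVC2 proteins relay its signal, Sufu lets go of the Gli transcription factors, and Gli1, Ptch1 and Hhip are themselves transcribed as targets. In adult liver the cilium is a feature of cholangiocytes rather than hepatocytes, and Hedgehog signaling is best known from ductular cells and stellate cells during injury and fibrosis.

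Reads assigned to genes numbered 26280884 to 32182759 per liver in the Brap F/F group and 26735149 to 33313914 in the Brap LKO group. Values are normalized counts, which are reads divided by a size factor for each liver. A gene was tested when its mean normalized count over the 8 livers was at least 5, which 15352 genes reached, among them 9 of the 10 members (all but Gli2). Threshold here means an adjusted p-value of 0.05 in limma over all 15352 genes. Log2 fold changes are of log2(normalized count + 1), Brap LKO minus Brap F/F. The added 1 draws those of scarce genes toward 0, as Gli1 was at 0.70 with it and at 0.80 with 0.5. Against the count tools the main values could lie on either side. Gli1 was at 0.64 in edgeR and 0.65 in DESeq2, while the scarce Cftr was at 2.91 here, 3.62 in edgeR and 3.76 in DESeq2. Normalized counts of Brap itself were 4042, 4203, 4065 and 3641 in Brap LKO and 4410, 4235, 3994 and 4106 in Brap F/F livers, with a log2 fold change of -0.07 ± 0.0676 (SE, adjusted p = 0.631 by limma). The count spans the whole gene and not only the flanked exons, so it did not check the labels. Albumin took 5.17 to 7.41% of the reads in Brap LKO and 6.45 to 9.34% in Brap F/F livers, and of 8 hepatocyte markers none was at 0 reads in all livers.

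Evc and Evc2 lie head to head on chromosome 5 of mm10. The Evc gene runs on the minus strand (chr5:37289098-37336894) and Evc2 on the plus strand (chr5:37338499-37425055), and their annotated starts are 1605 bases apart. Because both members of this pair were high in the Brap LKO livers, the 250 bases before each start are shown, read 5′ to 3′ along the gene from RefSeq on GRCm38.p6 (chr5:37336882-37337131, minus strand, for Evc and chr5:37338228-37338477, plus strand, for Evc2). Capitals mark the longest run of letters that the stretches share, which is 13 bases long and stands in opposite orientation in each.
Evc: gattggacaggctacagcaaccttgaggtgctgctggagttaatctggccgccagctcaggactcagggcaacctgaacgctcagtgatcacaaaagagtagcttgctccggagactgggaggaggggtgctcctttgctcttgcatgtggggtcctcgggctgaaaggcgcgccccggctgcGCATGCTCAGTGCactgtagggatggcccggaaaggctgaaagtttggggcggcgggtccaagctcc
Evc2: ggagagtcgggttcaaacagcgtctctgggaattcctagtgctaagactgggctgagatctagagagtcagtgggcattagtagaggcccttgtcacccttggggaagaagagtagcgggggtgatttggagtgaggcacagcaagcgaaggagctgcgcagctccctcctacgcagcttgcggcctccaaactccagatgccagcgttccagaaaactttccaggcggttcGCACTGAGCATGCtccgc

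The run sits at positions -67 to -55 from the RefSeq start of Evc and at -18 to -6 from that of Evc2, so it is nearer to the start of Evc2. It was looked for after the sequences had been seen. Of 32851 such stretches in the RefSeq table, 7 (0.0213%) hold the run on either strand, the others being before Camsap2, Ccdc160, Ipmk, Gm33326 and Gm34758. The longest run shared in the same orientation was 9 bases. Both stretches hold 11 CG pairs, against a median of 6 over all stretches, and 35.6% of all stretches hold at least as many as Evc. GC content was 60.8% before Evc and 57.2% before Evc2.

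The normalized count of Evc was 131, 152, 161 and 168 in the Brap LKO livers and 54.7, 49.8, 55.7 and 48.1 in Brap F/F livers. Every Brap LKO liver stood above every Brap F/F liver, and the spread within each group was small beside the gap. The counts rest on 144 to 179 reads per liver in Brap LKO and on 48 to 53 in Brap F/F. The mean was 153 ± 16.1 in Brap LKO and 52.1 ± 3.71 in Brap F/F livers (SD, n = 4), a log2 fold change of 1.53 ± 0.127 (SE), with a 95% confidence interval of 1.25 to 1.82, or 2.90-fold. EVC is a membrane protein of the ciliary base, and in people loss of either EVC or EVC2 causes Ellis-van Creveld syndrome.

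For Evc2, which codes for the partner of EVC in the same complex, the Brap LKO livers had normalized counts of 81.1, 90.9, 56.7 and 104. The Brap F/F livers had 33.1, 37.6, 23.1 and 40.2. The groups were again apart, and replicate 3 was the lowest liver in each of them. The mean was 83.2 ± 20.01 against 33.5 ± 7.53 (SD, n = 4), and the log2 fold change was 1.28 ± 0.238 (SE), with an interval of 0.75 to 1.82, or 2.43-fold.

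Of the 9 members tested, Evc and Evc2 were the 2 past the threshold, both higher in Brap LKO, where 0.664% of all tested genes were past it as higher and 0.104% as lower. The same 2 members had no overlap between the groups, a state that 5.48% of all tested genes had with Brap LKO higher and 4.39% with Brap LKO lower. The members were chosen with this contrast known, so these shares are given for scale and nothing is read from them. Log2 fold changes of the 9 members had a median of 0.70, the value of the scarce Gli1, with 7 above 0 and 2 below it, while all tested genes had a median of -0.01 and 48.0% above 0, and nothing is read from this either. Evc stayed past the threshold in each of 20 other settings, with log2 fold changes of 1.38 to 1.69. Evc2 kept its direction in all 20 settings (1.11 to 1.45) but was past the threshold in 8 of them, and when 1 liver was left out it was past the threshold only without Brap F/F replicate 4 (1 of 8).

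**Figure D1:**
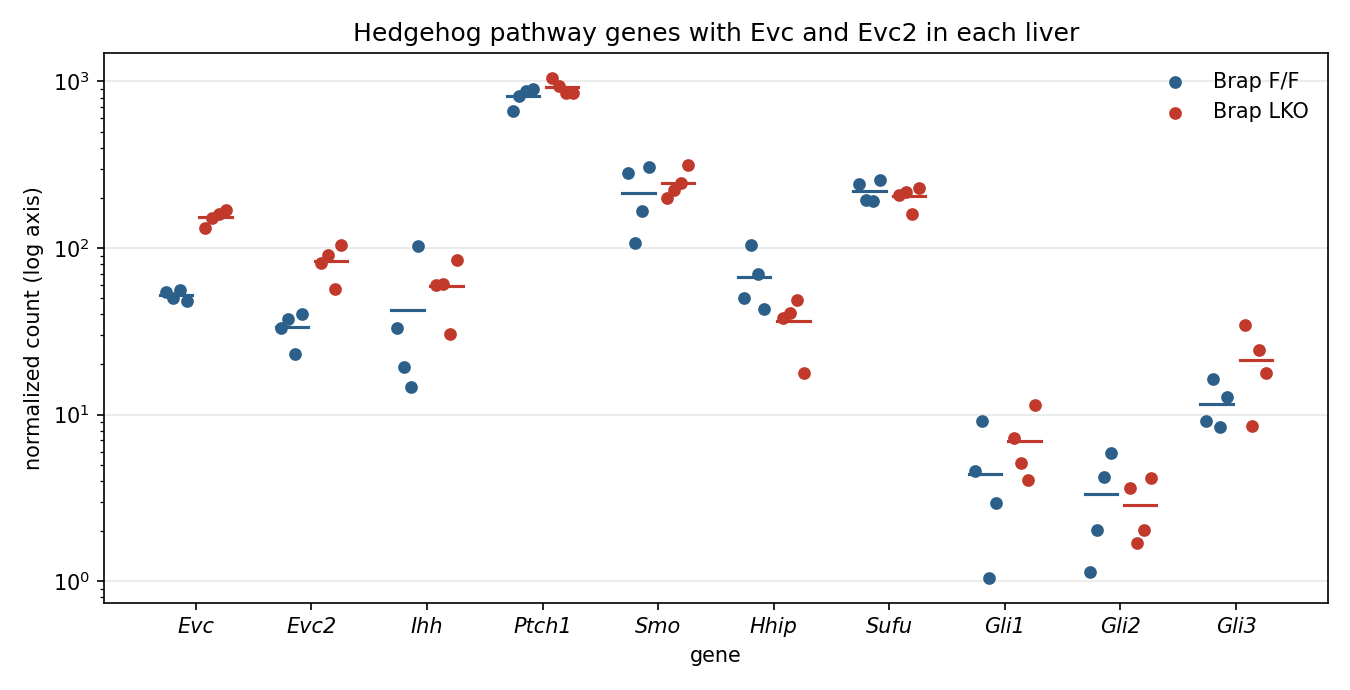
Normalized counts (log axis) of the 10 members in each liver, with Brap F/F in blue and Brap LKO in red; each point is a liver and each bar the mean of 4. The Brap LKO livers lie wholly above the Brap F/F livers for Evc (131 to 168 against 48.1 to 55.7) and Evc2 (56.7 to 104 against 23.1 to 40.2), and the groups overlap for the other 8 genes.

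The Evc and Evc2 counts were also set side by side within each liver. Evc stood above Evc2 by 1.62, 1.67, 2.84 and 1.62 times in Brap LKO and by 1.66, 1.32, 2.41 and 1.195 times in Brap F/F livers, so the ratio overlapped between the groups while both genes were higher. The animal numbers in the labels form a lower and a higher series, with 3 Brap LKO and 1 Brap F/F livers in the lower and 1 and 3 in the higher. Within the lower series Evc was at 131 to 161 in Brap LKO and 54.7 in Brap F/F, and Evc2 at 56.7 to 90.9 and 33.1. Within the higher series the values were 168 and 48.1 to 55.7 for Evc and 104 and 23.1 to 40.2 for Evc2. The gap was present in both series, each of which holds a single liver of one group and alone gives no test. When all 8 livers were fitted with the series as a covariate, Evc was at 1.56 and past the threshold, whereas Evc2 was at 1.395 and no longer past it.

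**Figure D2:**
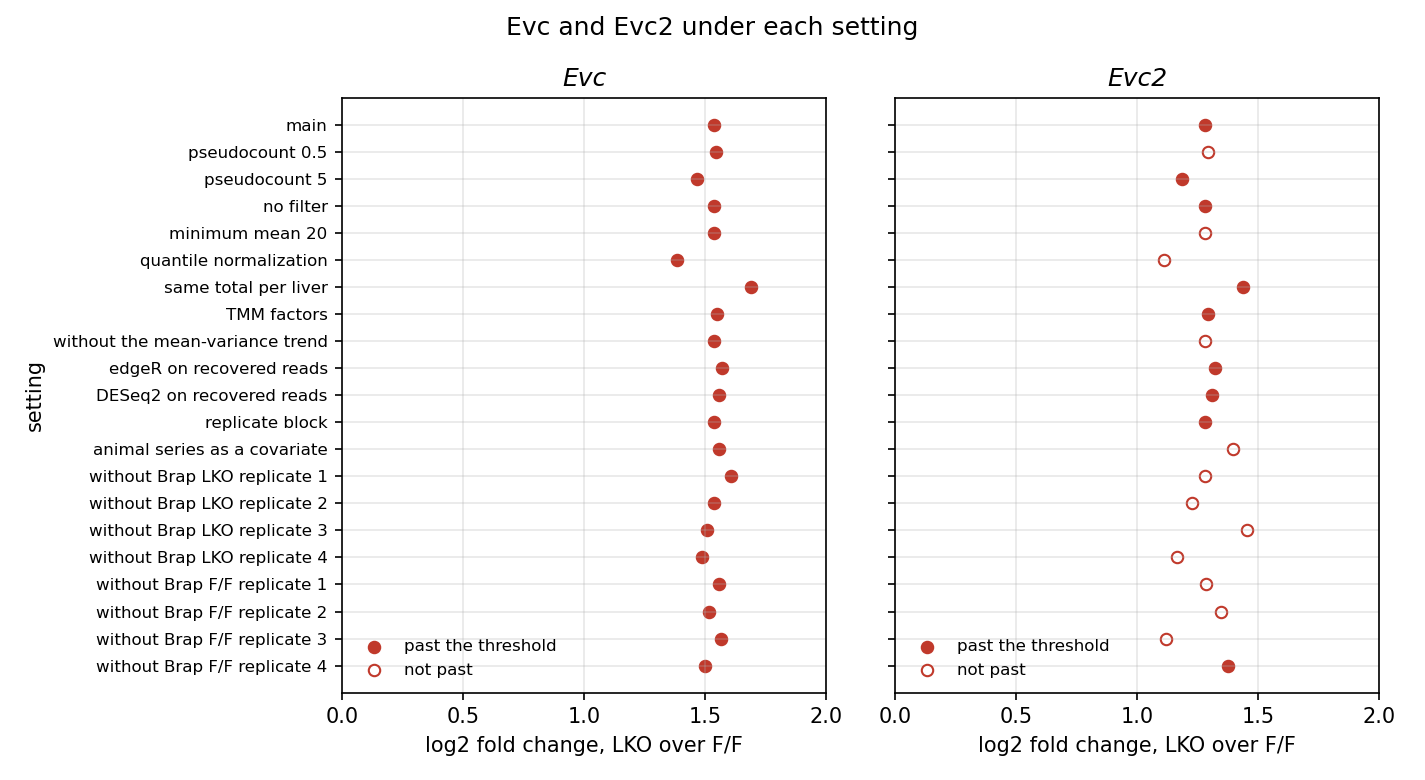
Log2 fold change (Brap LKO over Brap F/F) of Evc and Evc2 under the main and the 20 other settings; filled circles are past the threshold and open circles are not. Evc was past it throughout, between 1.38 and 1.69, whereas Evc2 lay between 1.11 and 1.45 and was open in 12 settings.

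Genes beside the pair did not share the difference at the threshold. On the Evc side, Jakmip1 (138 kb away) had a log2 fold change of 0.80 (SE 0.608, adjusted p = 0.540 by limma) on 1 to 13 reads per liver. Jakmip1 passed the filter through the Brap LKO livers, whose mean normalized count was 6.72, while that of Brap F/F livers was 4.13. Wfs1, an endoplasmic reticulum membrane protein gene 300 kb away, had -0.26 (SE 0.210, adjusted p = 0.570 by limma). On the Evc2 side, the homeobox gene Msx1 (395 kb) had 1.03 (SE 0.645, adjusted p = 0.463 by limma) on 1 to 17 reads per liver. The syntaxin gene Stx18 (614 kb) had -0.26 (SE 0.102, adjusted p = 0.274 by limma). Of 18 other tested genes within 1000 kb, 0 were past the threshold in limma, edgeR or DESeq2, and 3 had an unadjusted p under 0.05, a share near the 15.8% of all tested genes. One of the 3 was Sorcs2, singled out after its value was seen, whose log2 fold change of 1.24 (interval 0.17 to 2.31) was close to that of Evc2. The 4 nearest were past it in 0 of the other settings.

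**Figure D3:**
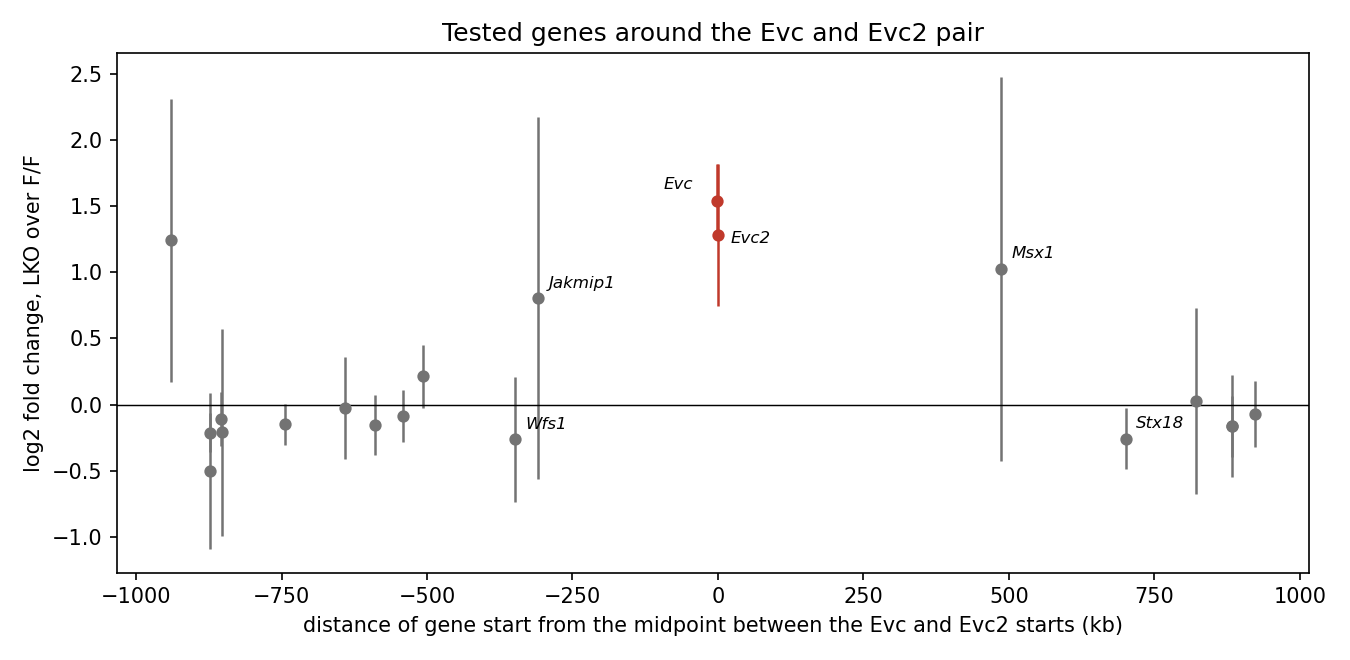
Log2 fold change (Brap LKO over Brap F/F, with 95% confidence interval) of tested genes within 1000 kb of the Evc and Evc2 pair, by the distance of each gene's start from the midpoint between both starts, in kb. Evc (1.53) and Evc2 (1.28) are in red, past the threshold, and the 18 grey genes are not past it; Jakmip1 (0.80) and Msx1 (1.03) have intervals that reach below 0, and the leftmost point is Sorcs2 (1.24), whose interval does not.

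The normalized count of Indian hedgehog, the ligand, was 60.1, 61.2, 30.4 and 84.2 in Brap LKO and 33.1, 19.3, 14.7 and 103 in Brap F/F livers. Brap F/F replicate 4 was the highest of all 8 livers, and the groups overlapped. The mean was 59.0 ± 22.1 against 42.5 ± 41.1 (SD, n = 4), a log2 fold change of 0.79 with an interval of -0.46 to 2.04 that includes 0. Leaving out Brap F/F replicate 4 gave 1.35, and leaving out replicate 3 of that group gave 0.44. With all 8 livers, edgeR and DESeq2 each gave 0.47. Ihh is at chr1:74945315-74951672 on the minus strand.

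Ptch1, the ligand's receptor and a target of the pathway, was the most abundant member. Its normalized counts were 1049, 943, 858 and 853 in Brap LKO and 661, 820, 872 and 902 in Brap F/F livers. The groups overlapped, with Brap F/F replicate 1 the lowest. The log2 fold change was 0.19 ± 0.112 (SE), with an interval of -0.06 to 0.44, so a change in Ptch1 mRNA as large as that of Evc lay outside the interval.

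Smo, the signal transducer that Ptch1 restrains, had 200, 222, 247 and 317 normalized counts in Brap LKO and 283, 107, 166 and 305 in Brap F/F livers. The Brap F/F livers split into a high pair, replicates 1 and 4, and a low pair, replicates 2 and 3, and they enclosed nearly all Brap LKO values. The log2 fold change was 0.29 (interval -0.41 to 0.998), and without Brap F/F replicate 2 it was -0.00034. Replicates 1 and 4 of Brap F/F were also the high livers for Ihh and for cyclin D1 (Ccnd1), for which they had 1824 and 1930 reads against 331 and 290. They were the high livers for Sufu too (242 and 257 against 194 and 191 normalized counts). For Hhip they were the low livers (50.2 and 43.2 against 105 and 69.4). Ptch1, Evc, Evc2 and the Gli genes did not divide the Brap F/F livers in this way.

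Hhip, which codes for a decoy that binds Hedgehog ligands at the cell surface, was the member with the lowest fold change. Normalized counts were 38.3, 40.8, 48.6 and 17.7 in Brap LKO and 50.2, 105, 69.4 and 43.2 in Brap F/F livers. A single Brap LKO liver (replicate 3) stood above the lowest Brap F/F liver, so the groups overlapped by that liver. The log2 fold change was -0.87 ± 0.358 (SE), with an interval of -1.67 to -0.06, and it was past the threshold in 0 of 20 other settings, edgeR and DESeq2 among them. It was -0.56 without Brap LKO replicate 4. Exons of Hhip (chr8:79965851-80058006) share 175 bases with Gm27820 on the opposite strand, 1.93% of their length.

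Sufu, which holds Gli proteins in the cytoplasm, stood at 210, 217, 161 and 229 normalized counts in Brap LKO and 242, 194, 191 and 257 in Brap F/F livers. The groups overlapped in most of their range, and the log2 fold change was -0.11 with an interval of -0.45 to 0.22. When all livers were scaled to the same total it was 0.042, a setting that shifted the median of all genes by 0.156.

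The Gli genes, which code for the transcription factors at the end of the pathway, were scarce in these livers. Gli3, which acts mostly as a repressor, stood at 34.6, 8.50, 24.3 and 17.7 normalized counts in Brap LKO and 9.12, 16.3, 8.41 and 12.8 in Brap F/F livers. The groups overlapped, since replicate 2 of Brap LKO lay with the lowest Brap F/F livers, and the log2 fold change was 0.70 (interval -0.21 to 1.62), or 0.43 without Brap LKO replicate 1 and 1.06 without Brap LKO replicate 2. Gli1, an activator and the usual readout of pathway activity, was counted with 8, 6, 4 and 11 reads in Brap LKO and 4, 9, 1 and 3 reads in Brap F/F livers.

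The Gli1 groups overlapped, and its log2 fold change of 0.70 had an interval of -0.47 to 1.87. Without Brap F/F replicate 3 it was 0.31, without Brap LKO replicate 4 it was 0.46, and without Brap F/F replicate 2 it was 1.08. It passed the filter through the Brap LKO livers, whose mean normalized count was 6.97, while that of Brap F/F livers was 4.43. Gli2, the main activator, had 4, 2, 2 and 4 reads in Brap LKO and 1, 2, 4 and 6 reads in Brap F/F livers and was not tested. Gli1 and Gli2 thus rest on 1 to 11 reads per liver, at which small differences between the groups are out of reach. Exons of Gli1 share 265 bases (5.31%) with the antisense gene Gm47200 and 62 bases (1.24%) with Arhgap9, and those of Gli3 share 188 bases (1.96%) with Gm6556.

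Levels of different genes were compared per kb of exon. In Brap F/F livers the normalized count per kb was 57.4 for Ptch1, 38.3 for Smo, 28.7 for Sufu and 14.0 for Ihh. Lower down were Hhip with 7.37, Evc with 6.76, Evc2 with 5.74, Gli3 with 1.21, Gli1 with 0.886 and Gli2 with 0.483 normalized counts per kb. Between neighbors in this order the ranges over the 4 livers overlapped everywhere but between Evc2 and Gli3, with Ptch1, Smo and Sufu at the upper end and the Gli genes at the lower.

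In Brap LKO livers the order of the means was the same except for Evc and Evc2, which stood above Hhip, and Evc also above Ihh. Evc exceeded Ihh in only 1 of the 4 Brap LKO livers, and their ranges overlapped. The normalized count per kb was 65.3 for Ptch1, 43.9 for Smo, 26.5 for Sufu, 19.9 for Evc, 19.3 for Ihh and 14.2 for Evc2. It was 4.00 for Hhip, 2.22 for Gli3, 1.39 for Gli1 and 0.419 for Gli2. Neighbors whose ranges were apart were Ptch1 and Smo, Smo and Sufu, Evc2 and Hhip, and Gli1 and Gli2.

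The other Hedgehog pathway genes, 36 in all, were read in the same fit. Scube2 was not analysed here, and 34 were tested. Of these 1 was past the threshold as higher in Brap LKO and 0 as lower (0.664% and 0.104% of all tested genes). An unadjusted p under 0.05 was found in 7 of the 34 (15.8% of all tested genes). Their median log2 fold change was 0.02 (-0.01 over all tested genes), with 19 above 0 and 15 below it. In 3 genes every Brap LKO liver was above every Brap F/F liver (Scube1, Scube3 and Kif7), and in 2 every Brap LKO liver was below (Ulk3 and Spop), counts that are near the 5.48% and 4.39% of all tested genes.

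The gene past the threshold was Scube3, one of the secreted SCUBE proteins, a family that helps release Hedgehog ligands from the cell. It was counted with 19, 29, 19 and 52 reads in Brap LKO and with 0, 1, 2 and 7 reads in Brap F/F livers. The groups did not overlap, although the Brap F/F livers were near the floor of 3 reads. Scube3 thus passed the filter through the Brap LKO livers, in which it was high. The mean normalized count was 28.8 ± 17.1 against 2.50 ± 3.04 (SD, n = 4), a log2 fold change of 3.34 ± 0.621 (SE, adjusted p = 0.0494 by limma). It was past the threshold in 8 of 19 other settings and, with 1 liver left out, in 1 of 8 (adjusted p from 0.0164 to 0.144 by limma), the exception being without Brap F/F replicate 4.

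Its relative Scube1 had 68, 50, 59 and 71 reads in Brap LKO and 24, 14, 8 and 24 reads in Brap F/F livers. These groups did not overlap either. The log2 fold change was 1.74 ± 0.349 (SE), with an adjusted p of 0.0617 by limma, short of the threshold, and it was past it in 3 of 20 other settings, DESeq2 among them. Disp2, of the Dispatched family that exports the lipid-bound ligands, had 34, 35, 60 and 31 reads in Brap LKO and 53, 162, 219 and 89 reads in Brap F/F livers. The ranges met at a single liver of each group, and the log2 fold change was -1.67 ± 0.411 (SE, adjusted p = 0.103 by limma). Disp2 was past the threshold, as lower, in 1 of 20 other settings, which was DESeq2. Disp1, the better known exporter, had a log2 fold change of 0.02, and Hhat, which attaches the palmitate to the ligands, had -0.01.

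The other ligands were near the limit of counting, with mean normalized counts for Shh of 3.51 ± 1.79 in Brap LKO and 6.52 ± 5.95 in Brap F/F livers (SD, n = 4). Dhh had 3.32 ± 1.23 and 4.93 ± 4.16 and was not tested. Among the coreceptors that present ligand to Ptch1, Boc was at 1.03 on the log2 scale (adjusted p = 0.250 by limma), Cdon 0.36 (adjusted p = 0.447 by limma) and Gas1 -0.27 (adjusted p = 0.427 by limma). Lrp2, an endocytic receptor that also takes up Shh, had 1.25 (adjusted p = 0.198 by limma). The proteins that tether the EVC complex at the ciliary base did not show the difference of the Evc pair at the threshold, since Iqce had 0.22 (interval -0.13 to 0.57) and Efcab7 0.21 (interval -0.72 to 1.13). Kif7, the kinesin that organizes the ciliary tip, stood at 30.1, 27.2, 27.3 and 28.1 normalized counts in Brap LKO and 16.0, 22.4, 17.9 and 17.7 in Brap F/F livers, without overlap, and its log2 fold change was 0.59 (adjusted p = 0.179 by limma).

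**Figure D4:**
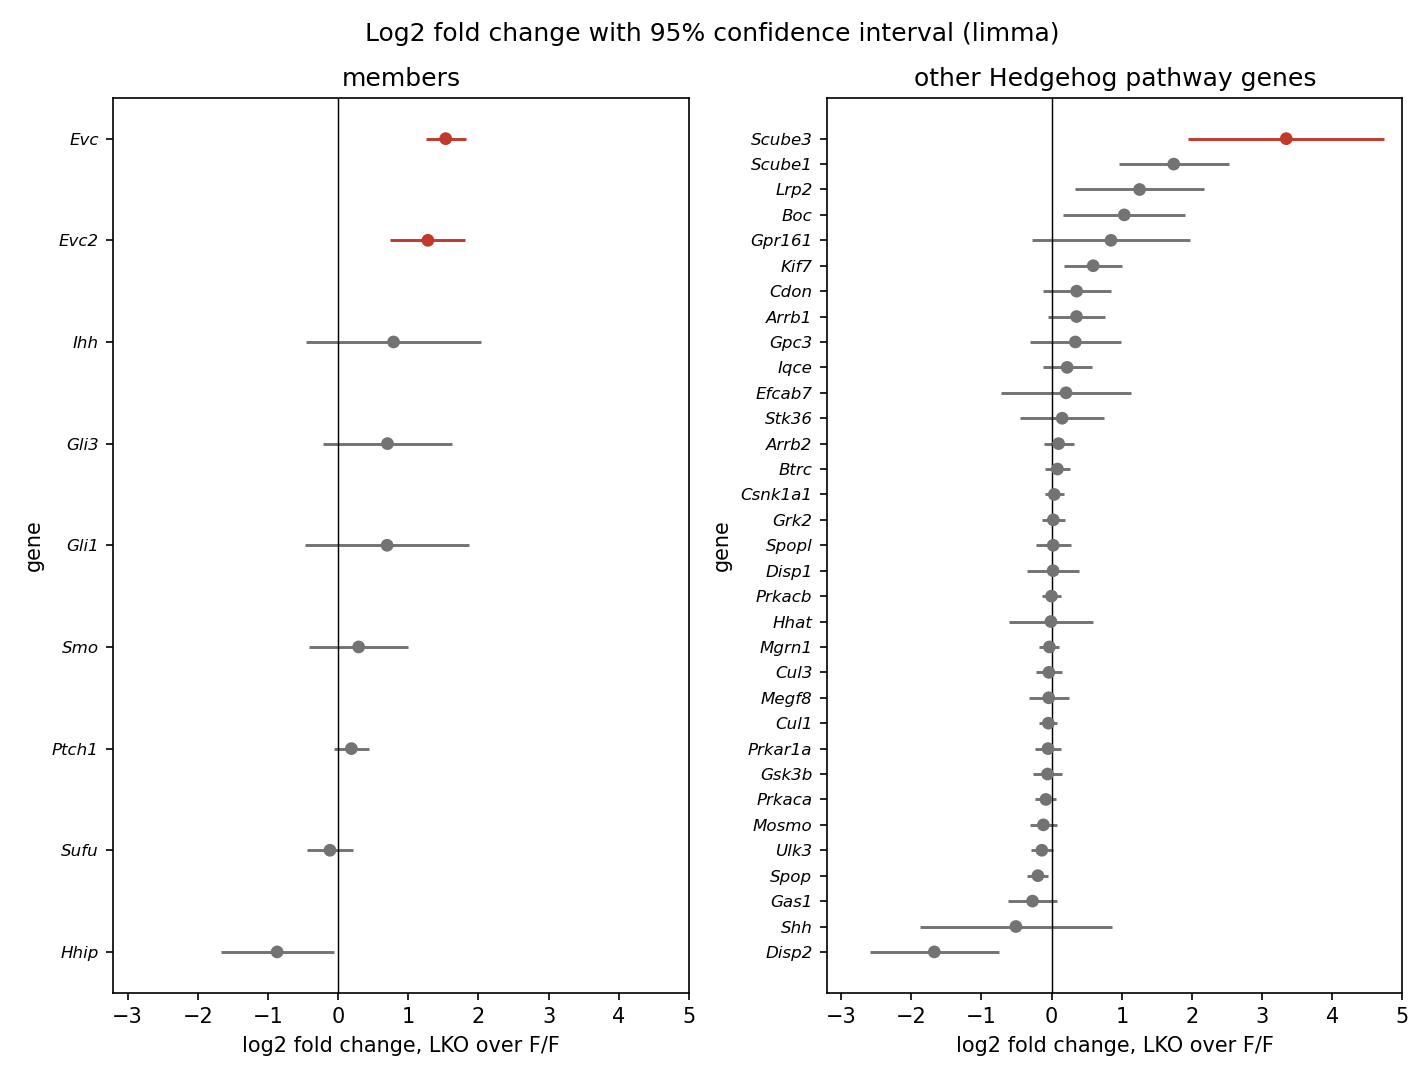
Log2 fold change (Brap LKO over Brap F/F) with its 95% confidence interval for the 9 tested members, left, and for 33 of the 34 other tested Hedgehog pathway genes, right, in order of size; red genes are past the threshold. Evc, Evc2 and Scube3 are red, Hhip (-0.87) and Disp2 (-1.67) lie farthest below 0.

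Genes described elsewhere as Hedgehog targets numbered 18, of which Foxf2, Foxl1 and Grem1 were not analysed here and 14 were tested. Past the threshold were 1 higher and 0 lower (0.664% and 0.104% of all tested genes), and 3 of the 14 had an unadjusted p under 0.05 (15.8% of all tested genes). The median log2 fold change was 0.31, with 11 of 14 above 0 (48.0% of all tested genes). Bmi1, a Polycomb component with many other regulators, had 868, 950, 758 and 818 reads in Brap LKO and 520, 533, 470 and 624 reads in Brap F/F livers. Its groups did not overlap, and the log2 fold change was 0.52 ± 0.0832 (SE, adjusted p = 0.0310 by limma). It was past the threshold in 11 of 20 other settings and, with 1 liver left out, only without Brap F/F replicate 4 (over those 8, limma gave adjusted p-values from 0.0232 to 0.108). The targets with the largest fold changes were not past it. Ccnd1 had 1.19 (SE 0.688, adjusted p = 0.430 by limma), the mitotic factor Foxm1 0.86 (SE 0.384, adjusted p = 0.319 by limma) and the secreted Wnt antagonist Sfrp1 0.62 (SE 0.234, adjusted p = 0.253 by limma).

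All 53 primary cilium genes were tested, and 0 were past the threshold in limma, while 6 had an unadjusted p under 0.05, a smaller share than the 15.8% of all tested genes. The count was also 0 in edgeR and DESeq2, and 1 when all livers were scaled to the same total (Tulp3) or the animal series was a covariate (Dync2li1). The median log2 fold change was 0.10, with 40 above 0 and 13 below it, where 48.0% of all tested genes were above 0. Every Brap LKO liver was above every Brap F/F liver in 6 of the 53 and below in 1, against 5.48% and 4.39% of all tested genes. The dynein light intermediate chain gene Dync2li1, part of the retrograde motor of the cilium, had a log2 fold change of 1.56 (SE 0.516, adjusted p = 0.202 by limma). The intraflagellar transport gene Ift57 had 0.73 (SE 0.234, adjusted p = 0.192 by limma). Tulp3, which carries receptors into the cilium, stood at 46.5, 40.8, 60.7 and 51.0 normalized counts in Brap LKO and 26.2, 33.6, 31.5 and 27.5 in Brap F/F livers, with 0.72 (SE 0.180, adjusted p = 0.106 by limma).

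Cell types that carry cilia or respond to Hedgehog were followed by their markers. Of 11 tested cholangiocyte markers, 11 had log2 fold changes above 0 (48.0% of all tested genes), with a median of 0.95 (-0.01 over all tested genes). Their summed normalized count was 2018 to 3979 in Brap LKO and 1172 to 2220 in Brap F/F livers. One of them, the chloride channel gene Cftr, was past the threshold as higher (18, 19, 6 and 17 reads against 0, 1, 2 and 1, adjusted p = 0.0331 by limma), as were 0.664% of all tested genes. It was past the threshold in 12 of 19 other settings and in 3 of 8 with a liver left out. Cftr passed the filter through the Brap LKO livers, whose mean normalized count was 14.1, while that of Brap F/F livers was 1.03. The bile duct keratin gene Krt19 had a value of 1.15 on the log2 scale (adjusted p = 0.181 by limma) and Epcam, an adhesion gene of duct cells, 0.96 (adjusted p = 0.127 by limma). DESeq2 on the recovered reads put 4 of the 11 past the threshold, all higher, and 455 of all 15352 tested genes as higher. In limma, 8 of the 11 had an unadjusted p under 0.05 (15.8% of all tested genes). In 5 of the 11 every Brap LKO liver was above every Brap F/F liver (5.48% of all tested genes). The part of the cholangiocyte markers in the differences of Evc, Evc2, Scube3 and the cilium genes was not tested. In bulk tissue, fewer or more cells of a type and less or more RNA per cell cannot be told apart.

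Stellate cell and fibroblast markers had 14 of 15 log2 fold changes above 0 (48.0% of all tested genes) and a median of 0.37 (-0.01 over all tested genes). Their summed normalized counts were 9232 to 13918 in Brap LKO against 6063 to 10358 in Brap F/F livers. Pdgfrb, the platelet-derived growth factor receptor of stellate cells, was past the threshold as higher, as were 0.664% of all tested genes. It stood at 466 ± 103 against 245 ± 41.7 normalized counts (SD, n = 4), a log2 fold change of 0.91 (adjusted p = 0.0494 by limma). Pdgfrb was past the threshold in 9 of 20 other settings and, with a liver left out, only without Brap F/F replicate 4. DESeq2 put 5 of the 15 past the threshold, all higher, and 455 of all 15352 tested genes as higher. In limma, 7 of the 15 had an unadjusted p under 0.05 (15.8% of all tested genes). In 3 of the 15 every Brap LKO liver was above every Brap F/F liver (5.48% of all tested genes). Of 6 mesothelial markers, Wt1 was past the threshold as higher (0.664% of all tested genes), with 44, 34, 53 and 49 reads against 5, 9, 4 and 11. Its log2 fold change was 2.43 (adjusted p = 0.0177 by limma), and it was past the threshold in 16 of 20 other settings and in 4 of 8 with a liver left out. The mesothelial median was -0.03, with 3 of the 6 log2 fold changes above 0 and 3 below it (48.0% of all tested genes were above 0). In limma, 1 of the 6 had an unadjusted p under 0.05 (15.8% of all tested genes). The summed normalized counts of the 6 overlapped (61.2 to 220 against 50.2 to 163). Endothelial (8 genes, median 0.26), macrophage (7 genes, median 0.34), hepatocyte (8 genes, median -0.34) and tested proliferation genes (6 genes, median -0.16) had 0 past the threshold in limma. In that order, log2 fold changes were above 0 in 8 of 8, 7 of 7, 2 of 8 and 2 of 6 (48.0% of all tested genes). At an unadjusted p under 0.05 were 1, 1, 3 and 0 (15.8% of all tested genes). The tools edgeR and DESeq2 likewise had 0 past the threshold except for 1 endothelial gene (Vwf) in DESeq2. Summed normalized counts were 6843 to 9832 against 5823 to 8337 for endothelial, 5305 to 9825 against 5676 to 7748.5 for macrophage and 499 to 564 against 523 to 651 for proliferation genes. No marker was at 0 reads in all 8 livers, and the part of these lists in the results above was likewise not tested.

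Sequence motifs were searched on both strands in the RefSeq windows of 250 bases before to 50 after each start, which exist here for 9 members (all but Gli1). The GLI site TGGGTGGTC was in none of these 9 windows and in 0.253% of all 32851. The RFX site GTTGCCATG, named for a family of cilium regulators, was in none of the 9 and in 0.773% of all. The TEAD core GGAATG, the site of the factors through which YAP acts, was in the Smo window, on the opposite strand 17 bases before the start, and in 14.7% of all windows. A missing match says only that these letters are not in the window.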

How the data were processed

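Liver RNA from 4 Brap LKO and 4 Brap F/F mice was sequenced, and groups follow the labels. Per the methods and the submitters' processing notes, mRNA libraries gave single-end reads of 50 bases, checked with FastQC and aligned to mm10 with STAR 2.6.0c. The counting tool, its annotation and its use of strand are not given in the sources used here, so overlapping genes can hold each other's reads. The deposited signal is reads per gene, which the authors had scaled by each liver's DESeq2 size factor (24451 genes, 187 without a symbol). All 8 sample columns were used, and 0 were left out. The authors' comparison of the groups, which holds fold changes and p-values, was not used.

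Genes with a mean of at least 5 were compared with limma 3.58.1 in R 4.3.3 (lmFit, eBayes with a trend) on log2(normalized count + 1), with Benjamini-Hochberg adjustment over all 15352 genes. Every value (100%) was a whole number of reads within 0.01, so reads were recovered, and edgeR 4.0.16 and DESeq2 1.42.0 were run on them as alternatives. The paper's own test, DESeq2, needs counts. Other settings were the pseudocount, the filter, the scaling, the trend, a replicate block, the animal series as a covariate and each liver left out. Only the main limma fit and edgeR were tested on simulated data. The changed genes there were drawn from the more abundant ones, so the recovery of scarce genes was not covered. Depth was 26280884 to 33313914 reads on genes, and floors of 3 reads cover counting error only.

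Members and gene lists were chosen with earlier results of these data known. Named genes are the members, Brap, the 2 nearest tested coding genes on each side of Evc and Evc2, each listed gene past the threshold and the 3 of each pathway list with the largest fold change. One listed pathway gene enters the counts and is not reported here by name. Genes named beyond this rule, such as coreceptors, ligands, Kif7, Krt19 and Epcam, were chosen after their values were seen. Positions and exon lengths came from GENCODE on mm10 (24430 genes found), and sequences from RefSeq on GRCm38.p6.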

Additional observations from a re-analysis of the deposited data

How the results depend on the processing

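Over 27 genes (tested members, Brap, the neighbors, and the listed genes past the threshold or with the largest fold changes in the pathway lists), log2 fold changes kept direction and side of the threshold in 469 cases, lost the threshold in 54, passed it in 6 and reversed in 4. The 4 were Smo, at -0.00034 without Brap F/F replicate 2 (up to 0.50 when another liver was left out), Sufu, at 0.042 with the same total per liver, and Brap, at 0.0082 with quantile normalization and 0.086 with the same total, and the cause was not tested. Members past the threshold as higher numbered 2, and 1 with a pseudocount of 0.5, a minimum mean of 20, quantile normalization, no mean-variance trend or the animal series as a covariate (1 to 2 when a liver was left out). In each case Evc was kept, and 0 members were past it as lower in any setting. Other Hedgehog genes past it numbered 1, and 0 with a pseudocount of 0.5, a minimum mean of 20 (where Scube3 was not tested), quantile normalization, no trend or edgeR, 2 with the same total, 3 with DESeq2 (Scube1 and Scube3 higher, Disp2 lower), and 0 to 3 with a liver left out. Targets numbered 1, and 0 with no trend or the animal series, 2 with DESeq2, and 0 to 1 with a liver left out. Cilium genes numbered 0, and 1 with the same total or the animal series. Over all genes, 102 were higher and 16 lower, against 459 and 20 with the same total, 455 and 170 with DESeq2, 62 and 16 with quantile normalization, and 11 to 178 higher when a liver was left out, the fewest without Brap LKO replicate 1 and the most without Brap F/F replicate 4. Deviations from the group mean correlated between same-numbered livers at -0.129, 0.00336, 0.196 and 0.292. Differently numbered livers were not set beside them, so these values do not decide whether the numbers pair the livers. The replicate block left 2 members past the threshold and took Cftr below it, with 80 genes higher and 15 lower over all. Depth limits Gli1, Gli2, Shh and Dhh, which rest on few reads per liver.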
